A study of Mus musculus with 6 samples.

Results

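The matrix metalloproteinases, the ADAMTS proteases, the ADAMTS-like proteins and their tissue inhibitors were compared between the ascending and the descending aorta of mouse embryos. All genes with a symbol of the form Mmp, Adamts or Adamtsl plus a number, together with Timp1 to Timp4 and Reck, were taken through array probe sets that name exactly 1 gene. This gave 50 genes of the 19938 genes analysed: 22 Mmp genes, 18 Adamts genes, 5 Adamtsl genes, and the 5 inhibitors Timp1, Timp2, Timp3, Timp4 and Reck. Each gene is read from 1 probe set, and where a gene had more, from the one with the highest mean over the arrays. Adamts2 and Mmp15 are not analysed here.

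The tissue was ascending aorta (3 arrays) and descending aorta (3 arrays) of untreated wild-type C57BL/6 embryos at 13.5 days postcoitum. Each array carried labelled total RNA of an aortic segment, so all its cell types are measured together. The study set out to compare smooth muscle of neural crest origin with that of mesodermal origin, and the labels give no lineage mark, sort, litter or pooling behind an array. Values are log2 expression after the authors' RMA processing, which corrects background, evens out the arrays and combines the probes of a probe set. A difference of 1 is therefore a 2-fold difference, and all differences are ascending minus descending. The labels call the replicates biological without naming embryos, so p-values rest only on how much these 6 samples vary.

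Metalloproteinases of the Mmp family are zinc enzymes, made as inactive proenzymes, that cut collagens, gelatin, elastin and cell surface proteins. ADAMTS enzymes are secreted zinc proteases with thrombospondin repeats that bind them to matrix; some cut the large proteoglycans versican and aggrecan, others trim procollagen, and the ADAMTS-like proteins share the binding repeats but lack the protease. The TIMP proteins bind and block the active site of these enzymes, and Reck is a membrane-anchored inhibitor that mouse embryos need for normal vessel development. In the embryonic aorta these proteins are known for shaping the matrix in which smooth muscle cells divide, migrate and lay down elastic layers.

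The arrays are labelled aorta, a vessel of smooth muscle. Acta2, the gene of smooth muscle actin, gave 13.72, 13.74 and 13.63 in ascending aorta and 13.67, 13.77 and 13.72 in descending aorta. Myh11, a smooth muscle myosin gene, gave 10.39, 9.42 and 10.19 in ascending aorta, against 10.42, 10.63 and 10.55 in descending aorta, wholly below it (-0.53 ± 0.23, and -0.62 ± 0.24 without ascending replicate 3, adjusted p = 0.237 by limma). The other smooth muscle markers read here, Tagln and Cnn1, went the other way. They differed by 0.17 and 0.047, and by 0.34 and 0.17 without ascending replicate 3, and neither was called. The array labelled ascending replicate 3 stood apart from its group. Over all genes it correlated at a mean Pearson r of 0.988 with ascending replicates 1 and 2 and of 0.996 with the 3 descending replicates, a description across genes, which are not independent replicates. Descending replicate 1 also stood apart. Its Xist value was 5.80 (Xist RNA coats the silenced X of female cells), beside 11.00, 10.46 and 11.02 on the ascending arrays and 11.23 and 10.10 on descending replicates 2 and 3. Descending replicate 1 was the highest of the 6 arrays for 21 of the 50 members, or 42%, against 31.7% of all genes. Ascending replicate 2 was the lowest for 20 of the 50 members, against 4861 of the 19938 genes. It correlated at only 0.983 to 0.987 with every array but ascending replicate 1. Differences of the members given by array are shown with and without ascending replicate 3, and calls also without both ascending replicate 3 and descending replicate 1. Leaving out ascending replicate 3 was a choice made from the data, which makes the p-values of such fits too small.

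Over all 6 arrays, limma called 0 of the 50 members at an adjusted p of 0.05, and 0% of all genes (smallest adjusted p 0.53). By their means 32 members (64%, against 56.2% of all genes) were lower and 18 higher in ascending aorta. The unadjusted p was under 0.05 for 7 members, or 14%, against 9.29% of all genes (3.96% higher and 5.33% lower). All 7 were lower in ascending aorta: Adamts12, Adamts4, Adamts14, Adamtsl2, Adamtsl3, Mmp25 and Timp3. Of these only Mmp25 had a mean below the median of gene means (6.49 against 7.88). The groups did not overlap for 8 members, or 16%, against 14.8% of all genes. The ascending arrays were the lower ones for all 8, against 8.95% of all genes, and the higher ones for 0, against 5.87%. These 8 are the same 7 genes and Reck. With 3 arrays a side the smallest two-sided p of an exact permutation test is 0.1, and none was run for single genes. In such tissue samples fewer cells of a type and less RNA per cell cannot be told apart.

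Without ascending replicate 3, limma called 9 members, or 18% of the 50, against 4.68% of all genes. Among genes above the median of gene means, which all 9 were, the called share was 29% of 31 members and 6.41% of all such genes, while it was 0 of 19 members and 2.95% of all genes at or below the median. Of the 9 members, 6 fell: Adamtsl3, Adamts18, Adamts12, Adamts4, Adamtsl2 and Mmp28. The background of lower calls was 2.61% of all genes, and that of higher calls 2.07%. Mmp23, Adamts3 and Adamts1 rose. Without both ascending replicate 3 and descending replicate 1, the doubted arrays, the calls were 3, with 2.35% of all genes called: Adamts12 and Adamts4 lower (1.18% of all genes) and Mmp23 higher (1.17%). This fit has 2 arrays a side, and it called 469 genes, against 933 with only ascending replicate 3 left out. Where a member's call was lost, the differences were -2.12 for Adamtsl3, -1.39 for Adamts18, -0.67 for Adamtsl2 and -0.52 for Mmp28. Those of Adamts3 and Adamts1 were 0.955 and 0.51. The fit without ascending replicate 3 alone gave -2.17, -1.48, -0.69, -0.64, 0.88 and 0.57 in that order. The part of the fewer arrays was not tested. The median difference of all members stayed near 0, at -0.058 with all arrays and -0.069 without ascending replicate 3, beside -0.021 and -0.018 for all genes. On ascending replicates 1 and 2, which carry these calls, markers of mesothelium and epicardium stood a median of 1.79 and 1.74 above the descending mean and endothelial markers at -0.69 and -0.49 from it, and their part in the result was not tested.

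**Figure D1:**
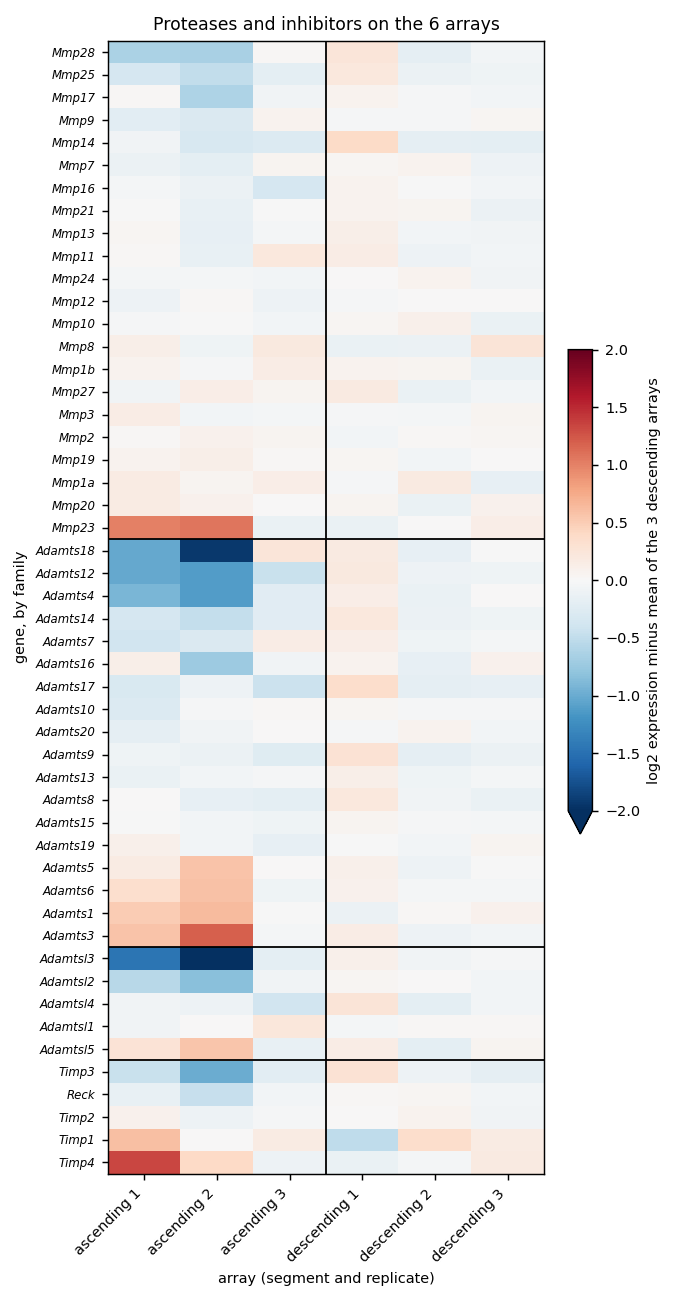
Log2 expression of the 50 genes on the 6 arrays (columns, ascending left of descending), as the deviation from the mean of the 3 descending arrays (colour), by family. The strongest colours are on ascending replicates 1 and 2, as for Adamtsl3, Adamts18 and Mmp23, and ascending replicate 3 is paler for these genes.

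The proteoglycan-cutting ADAMTS enzymes went different ways. Adamts4, an aggrecanase that also cuts versican (probe set 10351551), gave 8.32, 8.11 and 9.01 on ascending replicates 1, 2 and 3, against 9.36, 9.10 and 9.24 on descending replicates 1, 2 and 3. All ascending arrays were below all descending arrays, and replicate 3 was nearest to them. The difference was -0.76 ± 0.22 (SE, adjusted p = 0.53 by limma) over all arrays and -1.02 ± 0.12 without ascending replicate 3 (adjusted p = 0.00296 by limma, and adjusted p = 0.0172 without both doubted arrays). Adamts1, a versican-cutting enzyme that is known to be needed for heart and kidney development in mice, was 11.73, 11.86 and 11.22 in ascending aorta, against 11.12, 11.25 and 11.32 in descending aorta. Ascending replicates 1 and 2 lay above all descending arrays, and replicate 3 lay among them. Its difference was 0.37 ± 0.16 (adjusted p = 0.538 by limma), and 0.57 ± 0.10 without ascending replicate 3 (adjusted p = 0.0213 by limma). That call was lost when descending replicate 1 was left out as well (0.51, adjusted p = 0.0627 by limma).

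Adamts5, the main aggrecanase of mouse cartilage and the neighbour of Adamts1 in the genome, gave 10.82, 11.22 and 10.66 in ascending aorta, against 10.75, 10.56 and 10.65 in descending aorta. The same arrays were high as for Adamts1, but neither fit called it (0.25 ± 0.14, and 0.37 ± 0.13 without ascending replicate 3, adjusted p = 0.201 by limma). Adamts9, a versican-cutting enzyme of the developing vessels and heart, gave 11.81, 11.77 and 11.65 in ascending aorta, against 12.19, 11.72 and 11.77 in descending aorta. The groups overlapped, and the difference of -0.15 was -0.10 with ascending replicate 3 left out and -0.0022 with descending replicate 1 left out instead. Of the 6 probe sets of Adamts9, 5 were higher in ascending aorta without ascending replicate 3, with a median difference of 0.18. Adamts8, an aggrecan-cutting enzyme, gave 8.84, 8.67 and 8.64 in ascending aorta, against 9.04, 8.76 and 8.69 in descending aorta, and its groups overlapped. Its difference of -0.11 was -0.074 with ascending replicate 3 left out and -0.0067 with descending replicate 1 left out instead. Adamts15, another enzyme that cuts versican and aggrecan, gave 10.53, 10.49 and 10.46 in ascending aorta, against 10.60, 10.52 and 10.50 in descending aorta, a narrow span with overlap (-0.046, and -0.029 without ascending replicate 3). Adamts20, known from the belted coat mutation of mice, gave 6.69, 6.79 and 6.86 in ascending aorta, against 6.83, 6.93 and 6.81 in descending aorta, also with overlap (-0.080, and -0.12 without ascending replicate 3).

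The substrates of this branch were read from a list of 8 proteoglycan and link protein genes. Over all arrays 0 of 8 were called. Without ascending replicate 3 the list held 1 lower call, Vcan, and 1 higher call, Acan, where 2.61% of all genes were called lower and 2.07% higher. Vcan, the gene of versican, gave 11.85, 11.50 and 12.20 in ascending aorta, against 12.54, 12.32 and 12.27 in descending aorta, wholly below it (-0.53 ± 0.17, and -0.70 ± 0.13 without ascending replicate 3, adjusted p = 0.0265 by limma), and its call was lost without both doubted arrays (adjusted p = 0.0859 by limma). Acan, the gene of aggrecan, gave 9.78, 9.54 and 8.61 in ascending aorta, against 9.19, 8.54 and 8.73 in descending aorta, and overlapped (0.49 ± 0.30, and 0.84 ± 0.18 without ascending replicate 3, adjusted p = 0.0436 by limma), and was also called without both doubted arrays (adjusted p = 0.018 by limma). Of the other members by rank of p, Hapln1, a link protein gene, differed by 0.13 over all arrays, the brain proteoglycan gene Bcan by -0.28 and the small proteoglycan gene Bgn by -0.12, and without ascending replicate 3 by 0.15, -0.26 and -0.14.

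Adamts12 had the smallest p of all 50 genes (unadjusted p = 0.00177 by limma). It belongs with Adamts7 to a branch known to cut the cartilage protein COMP. On ascending replicates 1, 2 and 3 Adamts12 (probe set 10423109) gave 10.12, 10.02 and 10.69, against 11.32, 11.03 and 11.05 in descending aorta. The groups did not overlap, and ascending replicate 3 lay 0.414 of the way from the descending mean to the mean of the other ascending arrays. The means were 10.28 ± 0.36 in ascending and 11.13 ± 0.16 in descending aorta (SD, n = 3 each), a difference of -0.86 ± 0.18 (SE, adjusted p = 0.53 by limma). Without ascending replicate 3 it fell 2.10-fold (-1.07 ± 0.12, adjusted p = 0.00251 by limma), and it was also called without both doubted arrays (-0.97, adjusted p = 0.011 by limma). Adamts7, which is known to promote migration of vascular smooth muscle cells in rats and mice, gave 9.78, 9.87 and 10.31 in ascending aorta, against 10.29, 10.07 and 10.12 in descending aorta. There only ascending replicates 1 and 2 were low, and no fit called it (-0.17 ± 0.15, and -0.34 ± 0.10 without ascending replicate 3, adjusted p = 0.132 by limma).

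Adamts3 and Adamts14 are procollagen N-proteinases, which trim the amino end of fibrillar procollagens, and Adamts3 also activates the lymphatic growth factor VEGF-C in mice. The pair differed in sign. Adamts3 gave 9.66, 10.27 and 9.05 in ascending aorta, against 9.22, 8.99 and 9.03 in descending aorta, with replicate 3 among the descending arrays. It differed by 0.58 ± 0.27 (adjusted p = 0.548 by limma) and rose by 0.88 ± 0.18 without ascending replicate 3 (adjusted p = 0.0301 by limma, and adjusted p = 0.0785 without descending replicate 1 as well). With only ascending replicate 2 left out, the difference was 0.27. The gene had 16 probe sets, and all 16 had a higher mean in ascending aorta, by 0.50 to 1.00. Adamts14 gave 8.97, 8.83 and 9.07 in ascending aorta, against 9.51, 9.18 and 9.22 in descending aorta, wholly below it. It did not pass (-0.35 ± 0.11, adjusted p = 0.53, and -0.41 ± 0.12 without ascending replicate 3, adjusted p = 0.123 by limma).

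Adamts16 and Adamts18 are close relatives of each other. Adamts18 (probe set 10581961) gave 9.38, 8.49 and 10.65 in ascending aorta, against 10.59, 10.25 and 10.40 in descending aorta. Ascending replicates 1 and 2 were low and lay apart from each other, while replicate 3 was the highest array of all. The difference was -0.91 ± 0.47 (adjusted p = 0.568 by limma), and without ascending replicate 3 Adamts18 fell 2.79-fold (-1.48 ± 0.24, adjusted p = 0.0133 by limma). Without descending replicate 1 as well the difference was -1.39 and the call was lost (adjusted p = 0.0709 by limma). With only ascending replicate 2 left out, the difference of Adamts18 was -0.40. Adamts16 gave 8.24, 7.41 and 8.06 in ascending aorta, against 8.20, 7.98 and 8.23 in descending aorta, and its low value was that of ascending replicate 2 alone (-0.23, and -0.31 without ascending replicate 3).

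Adamts6, Adamts10 and Adamts17 are known for their part in the formation of fibrillin microfibrils. Adamts6 gave 8.87, 9.13 and 8.45 in ascending aorta, against 8.63, 8.49 and 8.49 in descending aorta, with replicates 1 and 2 high, and missed the threshold (0.28 ± 0.16, and 0.46 ± 0.11 without ascending replicate 3, adjusted p = 0.0585 by limma). Adamts10 gave 10.42, 10.66 and 10.71 in ascending aorta, against 10.73, 10.67 and 10.67 in descending aorta (-0.095, and -0.15 without ascending replicate 3). Adamts17 gave 11.30, 11.50 and 11.18 in ascending aorta, against 11.95, 11.42 and 11.45 in descending aorta, and its difference of -0.28 was -0.21 with ascending replicate 3 left out and -0.11 with descending replicate 1 left out instead. Of its 5 probe sets, 4 were higher in ascending aorta without ascending replicate 3, with a median difference of 0.10. The groups overlapped for all 3 genes. Over the 18 Adamts genes the median difference was -0.104, with 2 genes called higher and 3 called lower without ascending replicate 3, where 2.07% of all genes were called higher and 2.61% lower. Without both doubted arrays 2 Adamts genes were called, both lower, where 1.18% of all genes were called lower.

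**Figure D2:**
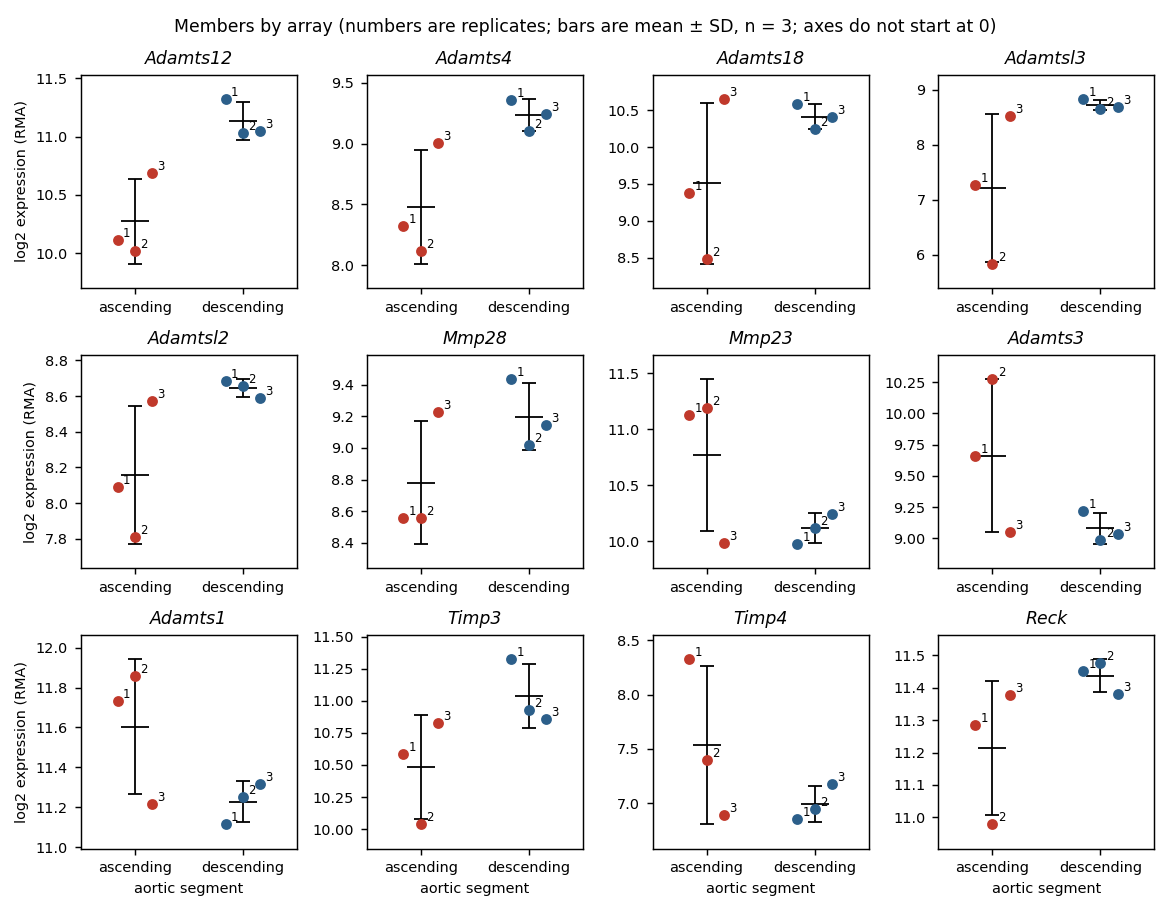
Log2 expression of 12 members by array (points, numbered by replicate; ascending left, descending right; horizontal bars mean ± SD, n = 3; each panel has its own scale that does not start at 0). The 9 genes called without ascending replicate 3 come first, and in each of these 9 the ascending point 3 lies nearer to the descending points than points 1 and 2 do.

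The ADAMTS-like gene Adamtsl3 had the largest difference of the 50 genes. Adamtsl3 (punctin-2, probe set 10554599), a matrix protein without protease activity, gave 7.26, 5.84 and 8.53 on ascending replicates 1, 2 and 3, against 8.83, 8.65 and 8.69 on descending replicates 1, 2 and 3. The descending arrays lay close together, ascending replicate 3 was just below them, and replicates 1 and 2 were lower and far from each other. The means were 7.21 ± 1.35 in ascending and 8.72 ± 0.095 in descending aorta (SD, n = 3 each), a difference of -1.51 ± 0.57 (adjusted p = 0.53 by limma). Without ascending replicate 3 Adamtsl3 fell 4.51-fold (-2.17 ± 0.34, adjusted p = 0.0123 by limma), and this call was lost without descending replicate 1 as well (-2.12, adjusted p = 0.0706 by limma). With only ascending replicate 2 left out, the difference was -0.83. Adamtsl2, which binds fibrillin and the latent TGF-beta binding protein Ltbp1 and is mutated in people with geleophysic dysplasia, gave 8.09, 7.81 and 8.58 in ascending aorta, against 8.69, 8.66 and 8.59 in descending aorta. The groups did not overlap, though ascending replicate 3 was only just below the lowest descending array. Adamtsl2 fell without ascending replicate 3 (-0.69 ± 0.11, adjusted p = 0.0123 by limma) and was not called over all arrays (-0.49 ± 0.18, adjusted p = 0.53) or without both doubted arrays (adjusted p = 0.0526).

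The other 3 ADAMTS-like genes were not called in any of these fits. Adamtsl1 (punctin-1) gave 9.54, 9.61 and 9.84 in ascending aorta, against 9.58, 9.63 and 9.63 in descending aorta (0.051, and -0.037 without ascending replicate 3). Adamtsl4, a fibrillin-binding protein gene mutated in people with displaced lenses, gave 8.37, 8.32 and 8.05 in ascending aorta, against 8.68, 8.23 and 8.37 in descending aorta. Its difference of -0.18 was -0.085 with ascending replicate 3 left out and -0.057 with descending replicate 1 left out instead. Adamtsl5, another microfibril-binding protein gene, gave 8.81, 9.08 and 8.38 in ascending aorta, against 8.67, 8.33 and 8.58 in descending aorta, with only ascending replicates 1 and 2 above the descending arrays (0.23, and 0.42 without ascending replicate 3). The median difference over the 5 genes was -0.183, and -0.085 without ascending replicate 3.

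Among 9 measured partners of these proteins in microfibrils, 0 were called over all arrays, and 1 was called lower without ascending replicate 3, against 2.61% of all genes. That gene, Ltbp2, which encodes a microfibril-associated binding protein, gave 8.46, 7.96 and 8.59 in ascending aorta, against 9.46, 9.03 and 8.90 in descending aorta (-0.79 ± 0.20, and -0.92 ± 0.20 without ascending replicate 3, adjusted p = 0.0398 by limma). Its arrays did not overlap, and the call was lost without both doubted arrays (adjusted p = 0.0994 by limma). Mfap5, a microfibril glycoprotein gene, differed by -0.65, Ltbp1 by -0.25 and the fibrillin gene Fbn2 by 0.24, with adjusted p values of 0.0695, 0.247 and 0.112 without ascending replicate 3 (limma).

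RefSeq promoter windows of 300 bases around a start that the table lists (GRCm38.p6) matched 35 of the 50 genes by symbol. Of the 38 windows, 10 lie wholly inside the gene as the RefSeq gene table spans it, those of Adamtsl3 and Adamts3 among them, and the others reach upstream of it. They were searched on both strands for 4 short motifs: TGANTCA, the AP-1 motif long studied in metalloproteinase promoters, AGGAAG, a PEA3 motif of ETS factors, TATAAA, and the GC box GGGCGG. None of the motifs contains another, and a match is only a match of letters. The promoters of 3 members whose expression differed without ascending replicate 3, 2 lower and 1 higher, are shown with every match in capitals.
Adamtsl3 (chr7:82335444-82335743, plus strand): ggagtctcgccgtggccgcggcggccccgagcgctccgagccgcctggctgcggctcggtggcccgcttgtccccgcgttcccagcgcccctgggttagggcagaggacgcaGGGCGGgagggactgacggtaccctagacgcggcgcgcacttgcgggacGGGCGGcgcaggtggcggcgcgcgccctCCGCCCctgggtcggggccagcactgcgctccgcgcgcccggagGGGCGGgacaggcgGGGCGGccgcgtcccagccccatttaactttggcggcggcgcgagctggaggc
Adamts12 (chr15:11064523-11064822, plus strand): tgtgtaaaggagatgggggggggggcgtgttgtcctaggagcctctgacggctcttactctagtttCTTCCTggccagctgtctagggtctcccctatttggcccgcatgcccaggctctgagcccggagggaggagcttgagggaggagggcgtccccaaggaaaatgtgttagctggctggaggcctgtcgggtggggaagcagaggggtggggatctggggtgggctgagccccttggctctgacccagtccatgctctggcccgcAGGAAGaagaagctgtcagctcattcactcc
Adamts3 (chr5:89883285-89883584, minus strand): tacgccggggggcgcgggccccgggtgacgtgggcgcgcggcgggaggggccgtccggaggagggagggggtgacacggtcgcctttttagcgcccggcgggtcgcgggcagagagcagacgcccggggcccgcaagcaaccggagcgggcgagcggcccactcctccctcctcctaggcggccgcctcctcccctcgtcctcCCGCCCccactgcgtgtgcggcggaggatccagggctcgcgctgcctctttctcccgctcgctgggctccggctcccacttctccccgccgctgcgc
In these windows Adamtsl3 held 5 GC boxes and Adamts3 held 1, while Adamts12 held 2 PEA3 matches and 0 GC boxes. GC content was 78.7% for Adamtsl3, 62.0% for Adamts12 and 77.3% for Adamts3, against a median of 52.7% over all 32851 promoters of the table.

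None of the membrane-type genes Mmp14, Mmp16, Mmp17 and Mmp25 was called with all arrays or without ascending replicate 3. Mmp14 (MT1-MMP), a collagenase of the cell surface that activates Mmp2, gave 12.05, 11.80 and 11.84 in ascending aorta, against 12.49, 11.93 and 11.92 in descending aorta. Descending replicate 1 was high and the other 5 arrays overlapped, and the difference of -0.22 was -0.030 without it and -0.19 without ascending replicate 3. Mmp16 (MT3-MMP) gave 10.87, 10.80 and 10.57 in ascending aorta, against 10.98, 10.91 and 10.85 in descending aorta (-0.17 ± 0.097, and -0.080 without ascending replicate 3). Mmp17 (MT4-MMP), held in the membrane by a lipid anchor, gave 8.39, 7.76 and 8.30 in ascending aorta, against 8.45, 8.36 and 8.32 in descending aorta, where ascending replicate 2 alone was low (-0.22, and -0.29 without ascending replicate 3). Mmp25 (MT6-MMP), also lipid-anchored and known from human leukocytes, gave 6.33, 6.17 and 6.47 in ascending aorta, against 6.87, 6.54 and 6.57 in descending aorta. All its ascending arrays were the lower ones (-0.34 ± 0.12, adjusted p = 0.53, and -0.41 ± 0.13 without ascending replicate 3, adjusted p = 0.13 by limma). Its values were all below the median of gene means (7.88).

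Mmp23 had the smallest p of the members without ascending replicate 3. It is a membrane metalloproteinase of unusual build, without the cysteine switch and the hemopexin domain of its relatives. Mmp23 (probe set 10519140) gave 11.13, 11.19 and 9.99 in ascending aorta, against 9.98, 10.12 and 10.25 in descending aorta. Ascending replicates 1 and 2 were close together and lay above every other array, and replicate 3 lay at the low end of the descending ones. Over all arrays the difference was 0.65 ± 0.30 (adjusted p = 0.538 by limma). Mmp23 rose 2.06-fold without ascending replicate 3 (1.04 ± 0.11, adjusted p = 0.00195 by limma) and was called without both doubted arrays too (0.97, adjusted p = 0.0114 by limma).

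Mmp28 (epilysin), a secreted enzyme known from human skin and testis, gave 8.56, 8.56 and 9.23 in ascending aorta, against 9.43, 9.02 and 9.14 in descending aorta. Only ascending replicates 1 and 2 lay below the descending arrays. It differed by -0.42 ± 0.20 (adjusted p = 0.548 by limma) and fell without ascending replicate 3 (-0.64 ± 0.13, adjusted p = 0.0333, and adjusted p = 0.0542 without descending replicate 1 as well, by limma). Mmp2 (gelatinase A), which cuts gelatin and basement membrane collagen, gave 13.08, 13.15 and 13.12 in ascending aorta, against 13.01, 13.08 and 13.10 in descending aorta. The 6 arrays spanned little and the 95% interval of its difference was -0.11 to 0.22 (0.052, and 0.050 without ascending replicate 3). Mmp11 (stromelysin 3), which is activated inside the cell by furin, gave 10.74, 10.56 and 10.92 in ascending aorta, against 10.86, 10.61 and 10.66 in descending aorta, with a 95% interval of -0.24 to 0.29 (0.027, and -0.062 without ascending replicate 3). Mmp9 (gelatinase B), an enzyme of macrophages, neutrophils and bone-resorbing cells, gave 6.54, 6.47 and 6.82 in ascending aorta, against 6.73, 6.73 and 6.80 in descending aorta, with ascending replicates 1 and 2 lowest (-0.14 ± 0.10, and -0.24 ± 0.090 without ascending replicate 3, adjusted p = 0.207 by limma).

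**Figure D3:**
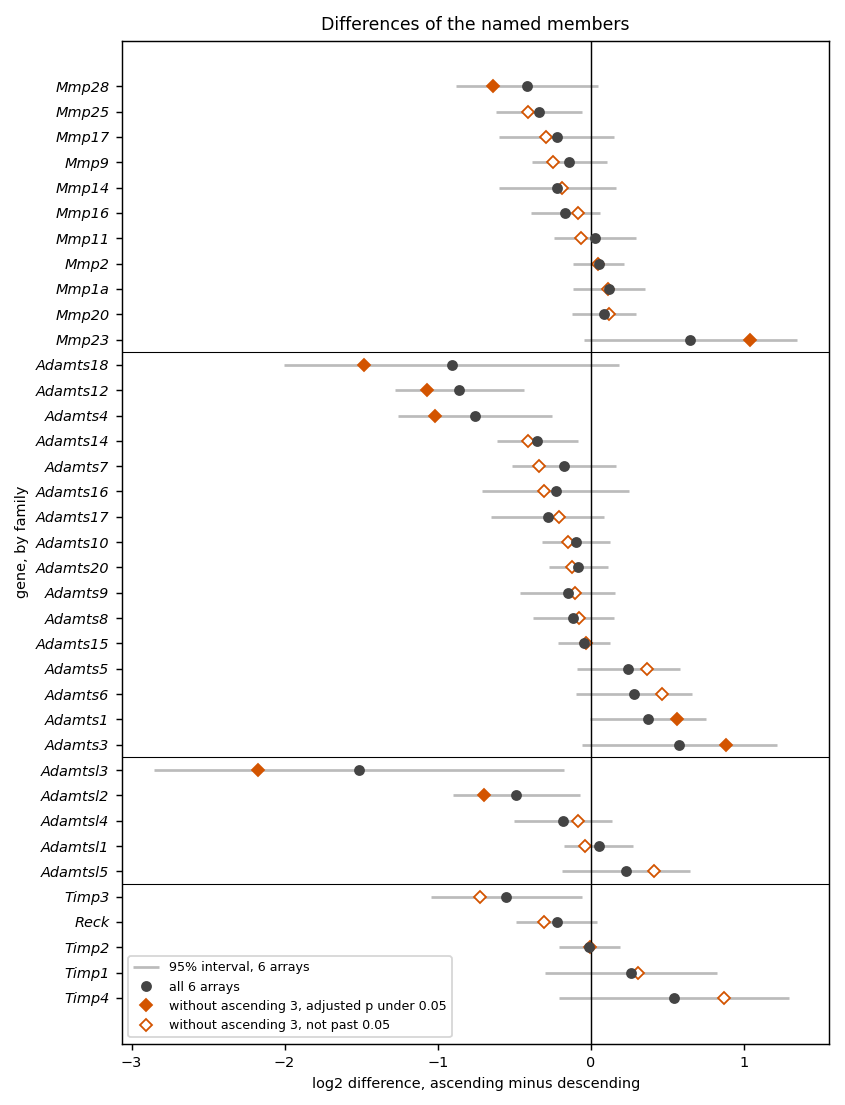
Log2 differences, ascending minus descending (horizontal axis), of the 37 members whose values are given by array, over all 6 arrays (circles, with 95% intervals) and without ascending replicate 3 (diamonds, filled where limma's adjusted p is under 0.05). The 9 filled diamonds run from Adamtsl3 at -2.17 to Mmp23 at 1.04.

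A group of 10 Mmp genes lies side by side in the mouse genome, in the order Mmp13, Mmp12, Mmp1b, Mmp3, Mmp1a, Mmp10, Mmp8, Mmp27, Mmp20 and Mmp7, with 0 other protein-coding genes between them in the RefSeq table of GRCm38.p6. It holds the classical secreted enzymes: the collagenases Mmp1a, Mmp8 and Mmp13, the stromelysins Mmp3 and Mmp10, the macrophage elastase Mmp12, the matrilysin Mmp7 and the tooth enamel enzyme Mmp20. Their values lay between 3.90 and 6.19 on all arrays, below the median of all gene means at 7.88. Probe sets differ in brightness for reasons other than transcript number, so this is no ranking of the genes. Differences between segments lay between -0.082 and 0.12, with a lowest adjusted p of 0.701 by limma (0.502 without ascending replicate 3). Mmp1a gave 4.43, 4.33 and 4.40 in ascending aorta, against 4.25, 4.44 and 4.11 in descending aorta, and Mmp20 gave 5.73, 5.65 and 5.58 in ascending aorta, against 5.63, 5.44 and 5.65 in descending aorta, both with overlapping groups. Without ascending replicate 3 their differences were 0.11 and 0.12, beside 0.12 and 0.085 with all arrays.

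The promoters of these neighbours differed in letters from those of the other members. All 10 neighbours had an entry, 12 promoters in all, and 8 held the AP-1 motif (66.7%), against 0 of 26 promoters of the other members and 7.81% of all promoters. TATAAA was found in 9 of the 12 (75%), against 3 of 26 (11.5%) and 13.6% of all promoters. The GC box was in 0 of the 12, against 21 of 26 (80.8%) and 35.7% of all. PEA3 motifs were in 8 of 12 (66.7%), against 8 of 26 (30.8%) and 35.4% of all. Median GC content was 41.7% for the 12, 65.3% for the 26 and 52.7% for all promoters, and its part in these shares was not tested. Of these windows, 2 of the neighbours' and 8 of the other members' lie wholly inside the gene's span. Neighbouring copies share ancestry and some promoters of a gene overlap, so these promoters are not independent. The promoters of 2 of the neighbours, Mmp13 and Mmp3, are shown with that of Mmp11, a member outside the group, with matches in capitals.
Mmp13 (chr9:7272264-7272563, plus strand): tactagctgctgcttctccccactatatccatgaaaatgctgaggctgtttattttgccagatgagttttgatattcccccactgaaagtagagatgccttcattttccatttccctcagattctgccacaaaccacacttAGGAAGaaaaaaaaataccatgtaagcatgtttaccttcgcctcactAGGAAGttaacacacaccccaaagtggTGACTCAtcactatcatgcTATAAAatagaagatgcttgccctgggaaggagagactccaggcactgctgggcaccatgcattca
Mmp3 (chr9:7445572-7445871, plus strand): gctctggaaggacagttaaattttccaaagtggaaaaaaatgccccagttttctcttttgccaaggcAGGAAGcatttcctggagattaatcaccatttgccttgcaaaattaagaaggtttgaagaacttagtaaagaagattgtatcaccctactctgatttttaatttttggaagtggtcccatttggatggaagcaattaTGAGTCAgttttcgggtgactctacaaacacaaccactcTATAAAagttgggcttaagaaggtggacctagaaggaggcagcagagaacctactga
Mmp11 (chr10:75932453-75932752, minus strand): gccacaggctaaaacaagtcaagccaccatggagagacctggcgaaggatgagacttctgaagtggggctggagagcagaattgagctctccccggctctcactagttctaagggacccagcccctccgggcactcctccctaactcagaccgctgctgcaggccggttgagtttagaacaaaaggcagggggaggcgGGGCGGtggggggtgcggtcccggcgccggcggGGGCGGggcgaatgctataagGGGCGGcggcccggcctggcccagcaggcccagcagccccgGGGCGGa
Mmp13 and Mmp3 each held 1 AP-1 and 1 TATAAA match, with 2 and 1 PEA3 matches, and Mmp11 held 4 GC boxes and none of the others. Their GC contents were 43.7%, 40.0% and 67.0%.

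The other 13 members are given by their range: the remaining neighbours, Mmp19, Mmp21, the membrane-type gene Mmp24, Adamts19, and Adamts13, whose enzyme cuts von Willebrand factor. Their values lay between 3.90 and 6.75, their differences between -0.082 and 0.071, and none varied by more than 0.39 over the 6 arrays. Over the 22 Mmp genes the median difference was -0.039 (-0.041 without ascending replicate 3), and without that array 1 was called higher and 1 lower (2.07% and 2.61% of all genes). Without both doubted arrays 1, the higher one, was called, where 1.17% of all genes were called higher.

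Of the inhibitors, Timp3 and Reck were the ones whose groups did not overlap. Timp3, which stays bound to the matrix and blocks Adamts4, Adamts5 and the sheddase Adam17 besides the Mmp enzymes, gave 10.59, 10.04 and 10.83 on ascending replicates 1, 2 and 3, against 11.32, 10.93 and 10.86 on descending replicates 1, 2 and 3. The ascending arrays were the lower ones, replicate 3 by a small margin. Timp3 averaged 10.49 ± 0.40 in ascending and 11.04 ± 0.25 in descending aorta (SD, n = 3 each), and did not pass (-0.55 ± 0.21, adjusted p = 0.53, and -0.72 ± 0.19 without ascending replicate 3, adjusted p = 0.0838 by limma). Reck gave 11.29, 10.98 and 11.38 in ascending aorta, against 11.45, 11.48 and 11.38 in descending aorta. Its ascending replicate 3 lay just below the lowest descending array (-0.22 ± 0.11, and -0.30 ± 0.11 without ascending replicate 3, adjusted p = 0.216 by limma).

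Timp4, an inhibitor best known from heart and vessels, gave 8.32, 7.40 and 6.89 in ascending aorta, against 6.85, 6.95 and 7.18 in descending aorta. Ascending replicate 1 was high by itself, replicate 2 lay between and replicate 3 was among the descending arrays, and no fit called it (0.55 ± 0.32, and 0.87 ± 0.24 without ascending replicate 3, adjusted p = 0.0985 by limma). Timp1, an X-linked gene, gave 10.77, 10.17 and 10.33 in ascending aorta, against 9.65, 10.51 and 10.32 in descending aorta. Its low value was that of descending replicate 1, the array with the low Xist value, and without that array the difference of 0.26 was 0.0057 (0.31 without ascending replicate 3). The part of that array's Xist difference was not tested. Timp2, which blocks Mmp2 and also carries its proenzyme to Mmp14 for activation, gave 12.15, 11.96 and 12.04 in ascending aorta, against 12.06, 12.13 and 11.99 in descending aorta, with a 95% interval of -0.21 to 0.19 for the difference (-0.010, and -0.0058 without ascending replicate 3). The median difference of the 5 inhibitors was -0.010, and 0 were called in any of these fits.

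Other protease systems of the matrix were read from 4 lists. None of their genes was called over all arrays. Without ascending replicate 3 the plasminogen activation list had 0 calls among 8 measured genes, the proprotein convertases 1 higher of 6, the cysteine cathepsins and cystatins 1 lower of 13, and the membrane ADAM proteases 1 lower of 10, against 4.68% of all genes. Ctsk (cathepsin K), a collagen-cutting protease of bone-resorbing cells and fibroblasts, gave 7.92, 6.87 and 9.14 in ascending aorta, against 9.57, 9.33 and 9.25 in descending aorta. It was low on ascending replicates 1 and 2, with replicate 3 just below the descending arrays (-1.41 ± 0.49, and -1.99 ± 0.27 without ascending replicate 3, adjusted p = 0.0068 by limma), and was also called without both doubted arrays (adjusted p = 0.0456 by limma). Adam12, a membrane protease of mesenchyme, gave 9.17, 8.65 and 9.80 in ascending aorta, against 9.84, 9.80 and 9.95 in descending aorta (-0.66 ± 0.26, and -0.96 ± 0.15 without ascending replicate 3, adjusted p = 0.0129 by limma), and its call was lost without both doubted arrays (adjusted p = 0.0599 by limma).

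The other genes of these lists with the smallest p are given by their difference over all arrays, and apart from Pcsk1 none was called without ascending replicate 3. Adam9, Adam15 and Adam17 differed by -0.37, -0.36 and -0.30. Cstb, a cathepsin inhibitor inside cells, differed by 0.54, Ctsz by -0.28 and Ctso by 0.24. The urokinase gene Plau differed by -0.26, the plasminogen receptor gene Plgrkt by 0.33, Serpinb2 by -0.14 and Plg by -0.17. Of the convertases that activate proenzymes, Pcsk5 differed by -0.28, Pcsk6 by -0.27, Pcsk7 by -0.090 and Pcsk1 by 0.48. Pcsk1 was called higher without ascending replicate 3, with 7.35, 6.81 and 5.80 in ascending aorta, against 6.17, 6.12 and 6.24 in descending aorta (0.91 ± 0.15, adjusted p = 0.0169 by limma), a call lost without both doubted arrays (adjusted p = 0.0735 by limma).

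Markers of other cell types also differed, mostly on ascending replicates 1 and 2. Of all genes, 2.07% were called higher and 2.61% lower without ascending replicate 3, and 1.17% and 1.18% without both doubted arrays. The 6 markers of mesothelium and epicardium, cell layers that cover the heart and body cavities, had a median deviation from the descending mean of 1.79, 1.74 and 0.25 on ascending replicates 1, 2 and 3, against -0.11, -0.037 and 0.11 on the descending arrays. Their summed level was 11.59 to 13.24 (log2) in ascending and 11.22 to 11.49 in descending aorta. Of the 6, 5 were called higher without ascending replicate 3, and 5 also without both doubted arrays. The largest difference was that of Upk1b (1.94 over all arrays). Endothelial markers gave -0.69, -0.49 and -0.11 in ascending aorta, against 0.12, -0.12 and 0.0058 in descending aorta. Their summed level was 13.08 to 13.80 in ascending and 13.80 to 14.01 in descending aorta, with 3 of 5 called lower without ascending replicate 3, Emcn most (-1.69 over all arrays), and 2 called without both doubted arrays. The endothelial markers Pecam1 and Tek were not called, and differed by -0.18 and -0.076 over all arrays. Without ascending replicate 3 their differences were -0.23 and -0.035. Macrophage markers gave -0.12, -0.96 and 0.21 in ascending aorta, against -0.038, 0.070 and -0.026 in descending aorta, with summed levels of 10.72 to 11.98 and 11.78 to 11.88 and 2 of 6 called lower, Mrc1 most (-1.10 over all arrays), and 1 called without both doubted arrays.

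Cardiac muscle markers had summed levels of 10.65 to 12.24 in ascending and 10.50 to 10.85 in descending aorta, with 1 of 6, Tnnt2, called higher without ascending replicate 3 (2.07% of all genes). Tnnt2 was also called without both doubted arrays (adjusted p = 0.0149 by limma). The 5 cartilage markers, of which Acan is also in the substrate list, had 10.90 to 11.08 and 10.69 to 10.94, with 2 called higher and 1 lower without ascending replicate 3 (2.07% and 2.61% of all genes) and 1, Acan, called without both doubted arrays. Smooth muscle markers had 14.39 to 14.70 and 14.50 to 14.57, with 0 of 4 called. The 6 neutrophil markers, all below the median of gene means, had 8.64 to 8.79 and 8.66 to 8.87, with 0 called. Only 2 of 5 nerve and Schwann cell markers were measured, and 0 were called. The part of these cell types in the members' differences was not tested.

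**Figure D4:**
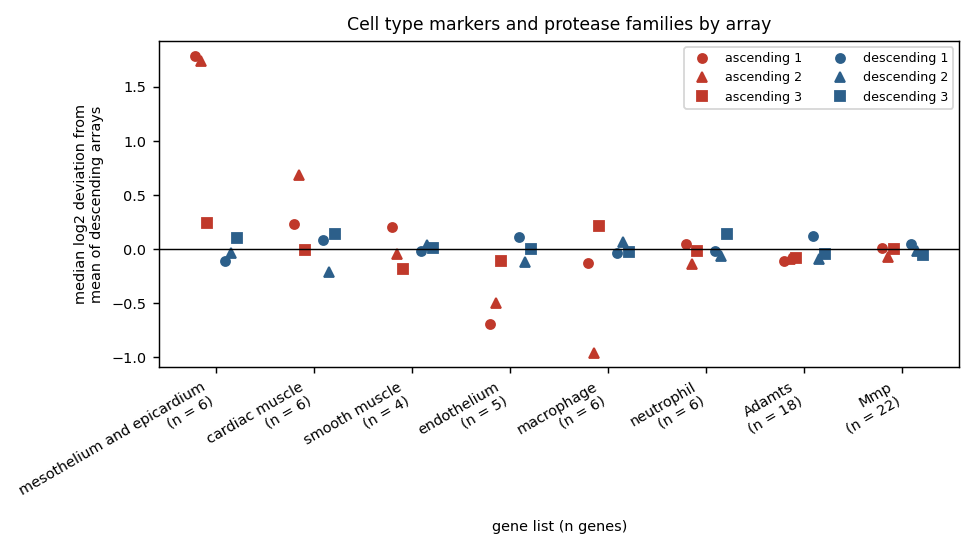
Median log2 deviation from the mean of the descending arrays (vertical axis) over 6 lists of cell type markers and over the Adamts and Mmp genes (horizontal axis), with 1 point per array, ascending (red) left of descending (blue). Mesothelial and epicardial markers stand at 1.79 and 1.74 on ascending replicates 1 and 2 and at 0.25 on replicate 3, and the Adamts and Mmp medians stay near 0 on every array.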

How the data were processed

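RNA of 3 ascending and 3 descending aorta samples was hybridised to Affymetrix arrays, per the labels' protocols. The deposited log2 values were made by the authors with RMA in Partek 6.6, per the submitters' processing notes, with settings and genome build not given in the sources used here. All 6 columns were used, and the arrays' number limits the precision. Of 35556 probe sets, 21789 named 1 gene, 1621 several and 12146 none by the platform annotation, and for 999 genes with several probe sets the one with the highest mean was kept.

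Segments were compared with limma 3.58.1 in R 4.3.3 (lmFit, eBayes, two-sided, no covariates) over all 19938 genes with Benjamini-Hochberg adjustment and a threshold of 0.05. Dim genes were kept. Python 3.11.15, pandas 2.3.3 and matplotlib 3.10.9 prepared tables and plots. On simulated data with 200 of 19938 genes changed, 83.2% of changes of 1 and 98.2% of changes of 2 (log2) were recovered with 6 arrays, and 72.0% and 94.4% without ascending replicate 3. The simulated noise was independent between genes, with no array that stood apart, and took its spread from all 6 arrays in both designs. The real arrays differ in this, so these shares do not tell how many changes the real fits would find.

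Per-array values are given for all inhibitors, for other members above the median of gene means and for the 5 remaining members with the smallest p. Of each protease or substrate list up to 4 genes with the smallest p are given, and Acan, called without ascending replicate 3 but not among those 4, was added after its values were seen. Members, lists and rules were chosen with earlier results of these data known. Deviations of same-numbered arrays from their group means correlated at -0.08, -0.055 and 0.024 across genes, and those of other pairs at -0.064 to 0.168. Arrays that stand apart weigh on these values, which therefore cannot exclude a shared litter or day. The labels do not tie replicate numbers to a litter or day, so the replicate block is an alternative only.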

Additional observations from a re-analysis of the deposited data

How the results depend on the processing

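The 16 alternatives were repeated quantile normalization, median-centring, filters on dim genes, the mean of all probe sets, a variance trend, no moderated variance, array weights, a replicate block, leaving out each array, and leaving out both doubted arrays. Leave-one-out fits called 0 to 933 genes and 0 to 9 members, with all calls in the fit without ascending replicate 3, and 469 genes and 3 members were called without both doubted arrays. With the replicate block 0 genes and 0 members were called. The median difference of the Mmp genes was -0.14 and -0.166 under the filters at the 25th and 50th percentile, which leave fewer genes, and that of the inhibitors -0.116 at the 50th. The ADAMTS-like median was -0.0715 with array weights and -0.0558 without both doubted arrays, and ran from -0.281 to -0.0565 when single arrays were left out. Single arrays left out gave -0.0691 to -0.0056 for Mmp, -0.144 to -0.0558 for Adamts and -0.0608 to 0.0362 for the inhibitors. Among 37 named members, 8 changed sign somewhere, none with a difference above 0.229 over all arrays. Without both doubted arrays Adamts15 gave 0.0006, Adamts8 0.0325, Adamts9 0.0458, Adamtsl4 0.041 and Adamtsl1 -0.0558. The mean of all probe sets gave 0.0203 for Adamts9. Timp2 gave 0.0251 after quantile normalization and 0.0246 with array weights. Leaving out single arrays, Adamts16 ran from -0.3998 to 0.0192, Adamtsl1 from -0.0374 to 0.114, Mmp11 from -0.0619 to 0.1147 (-0.0223 without descending replicate 2) and Timp2 up to 0.0362 (0.0264 without descending replicate 2), and the lowest values were -0.0672 for Adamts15, -0.1821 for Adamts8 and -0.2364 for Adamts9. The causes were not tested.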

Other observations

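Probe sets of 1 gene did not always give the same sign. Of 6 probe sets of Adamts9, 4 had a higher mean in ascending aorta (5 without ascending replicate 3), with differences from -0.15 to 0.098 over all arrays. Of 5 of Adamts17, 3 were higher (4 without ascending replicate 3), with differences from -0.28 to 0.090 over all arrays. For both genes the brightest probe set, used above, gave the lowest of these differences. The 16 probe sets of Adamts3 had a median difference of 0.67, and 0.97 without ascending replicate 3, against 0.58 and 0.88 for the brightest one.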
